A study of Mus musculus with 2 samples.

Results

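Ephrins and Eph receptors are cell-surface partners that signal on contact between neighbouring cells, and 9 of them were followed here through the cell types of the injured mouse kidney. They were the ligands Efna1, Efna5, Efnb1 and Efnb2 and the receptors Epha3, Epha6, Epha7, Ephb2 and Ephb4, 9 of the 32285 genes in the count tables. They were selected on the values of Efna5 and Ephb2, which had been seen to differ between the libraries, so those differences are given as descriptions and nothing rests on them. Both groups were kidneys with ischemia reperfusion injury made by clamping 1 renal artery, and in both groups the mice received 4 tamoxifen injections in all and were studied on day 14 after the injury. The control group had the genotype Cre-. The haplodeficient group had the genotype Cdh5-CreERT2; Phd3f/+, in which the Cdh5 promoter drives a tamoxifen-dependent Cre in endothelium and 1 copy of Phd3, an oxygen-sensing prolyl hydroxylase gene, is floxed. The labels do not say whether the control mice carried the floxed allele, nor give age, sex or the number of animals behind a library. Each group was 1 library, both in batch 1, so no difference between the groups can be told apart from a difference between 2 samples, and no p-value is given.

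The Eph receptors are receptor tyrosine kinases. A-type ephrins are tied to the membrane by a lipid anchor and mostly bind EphA receptors, while B-type ephrins cross the membrane and mostly bind EphB receptors. Because both partners sit in membranes, binding can signal into either cell, and it often makes cells withdraw from each other or sort apart. In blood vessels ephrin-B2 marks arteries and its receptor EphB4 marks veins, and in the kidney the pair takes part in building glomerular and peritubular capillaries.

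A barcode counted as a cell if it had 500 or more unique molecular identifiers (UMIs, each standing for 1 captured RNA molecule), 200 or more genes and at most 50% mitochondrial UMIs, and after removal of called doublets 8737 control and 9222 haplodeficient cells were left. The libraries stood apart in ways that touch every comparison. The median cell had 8762 UMIs and 10.2% mitochondrial UMIs in the control library, against 5472 UMIs and 2.69% in the haplodeficient library, and proximal tubule-like cells numbered 3182 against 439. Control cells and haplodeficient cells below mean the cells of each library, whatever their type, and where 2 values stand together the control value comes first. Among the kept cells 23 barcode sequences occurred in both libraries. There were 362 control and 794 haplodeficient endothelial-like cells. They had Cdh5, the junction gene whose promoter drives the Cre, at 697 and 707 CPM (UMIs of the gene per 1000000 UMIs of the class). In them Egln3, the gene for PHD3, was at 24.2 CPM from 58 UMIs in control and 21.1 CPM from 112 UMIs in haplodeficient cells, with overlapping intervals. Where the floxed part lies was not stated, and counts at the 3′ end of a transcript do not check a deletion elsewhere in the gene.

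Among the 13 cell classes with at least 100 cells in each library, the ligand Efna5 in the control library was highest in the distal nephron. Ephb2 was highest in the thick ascending limb, Epha7 in the thin descending limb and Epha3 in fibroblasts, while Efna1, Efnb1, Efnb2, Epha6 and Ephb4 were highest in endothelium. Efna5 was also high in arterial-like cells, a part of the endothelial-like class and not a class of their own. A gene and cell class pair was eligible if it averaged 10 CPM or more and had 30 UMIs or more, and it met the size rule when the log2 ratio of haplodeficient over control, with 5 CPM added to each, was at least 1 in either direction and the 95% Poisson intervals of the CPM did not overlap. Over these 13 classes the 9 genes gave 47 eligible pairs, of which 4 met the size rule. Efna5 in endothelial-like cells and Ephb2 in descending thin limb-like cells were lower in the haplodeficient library, and Epha3 in endothelial-like and fibroblast-like cells was higher. Over all genes 2.02% of 103014 eligible pairs met the rule. The first 2 of the 4 belong to the genes whose values chose the set, so nothing is read from the count of 4 against that share. Without Efna5 and Ephb2, 2 of 36 eligible pairs met the rule, both of Epha3. The count of 4 was 8 with a minimum of 1000 UMIs, where 1.96% of eligible pairs over all genes met the rule. It was 8 with each library clustered on its own (3.59%), 7 at a finer clustering (2.02%) and 2 with eligibility at 50 CPM (2.1%). With called doublets kept it was again 4 (2.35%). Only 1 of those pairs, Ephb2 in descending thin limb-like cells, was among the 4 given here. The median log2 ratio of the 36 pairs without Efna5 and Ephb2 was 0.03, against 0.03 for all eligible pairs. None of the 9 genes was eligible in macrophage-like, dendritic-like, neutrophil-like or T cell-like cells. The intervals given here cover counting error only, since cells of 1 library are not replicates, and a class with fewer cells of a kind cannot be told apart from less RNA in each where a class mixes kinds.

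**Figure D1:**
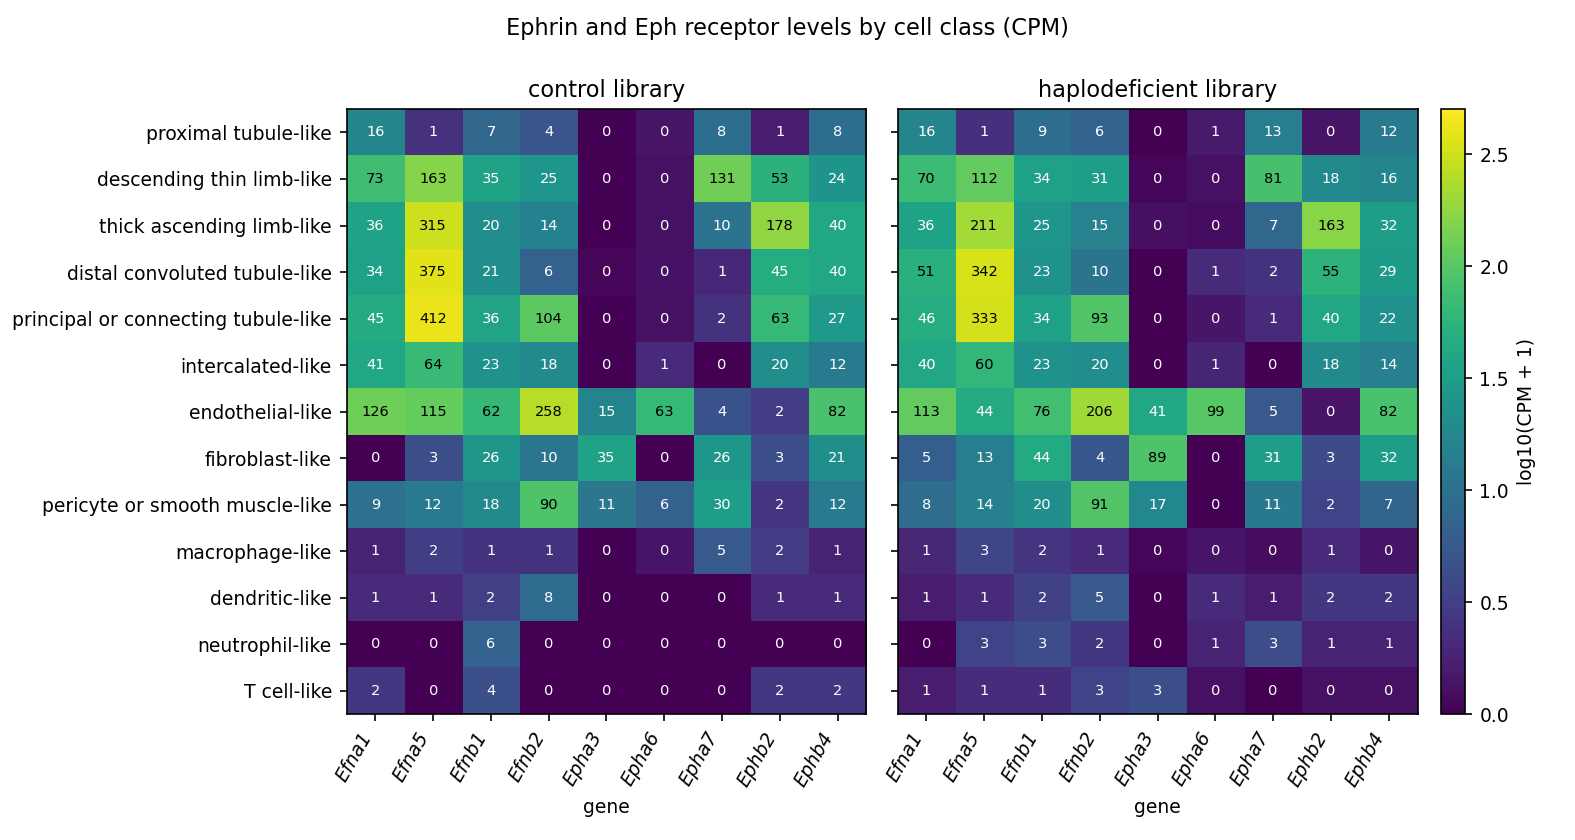
Levels of the 9 genes (columns) in the 13 compared cell classes (rows), as CPM over the summed UMIs of a class, for the control library (left) and the haplodeficient library (right); the colour is log10 of CPM + 1 and the printed number is CPM. Efna5 filled the tubule rows from the descending thin limb to the principal or connecting tubule in both libraries, and the rows of the 4 immune classes were near 0.

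**Figure D2:**
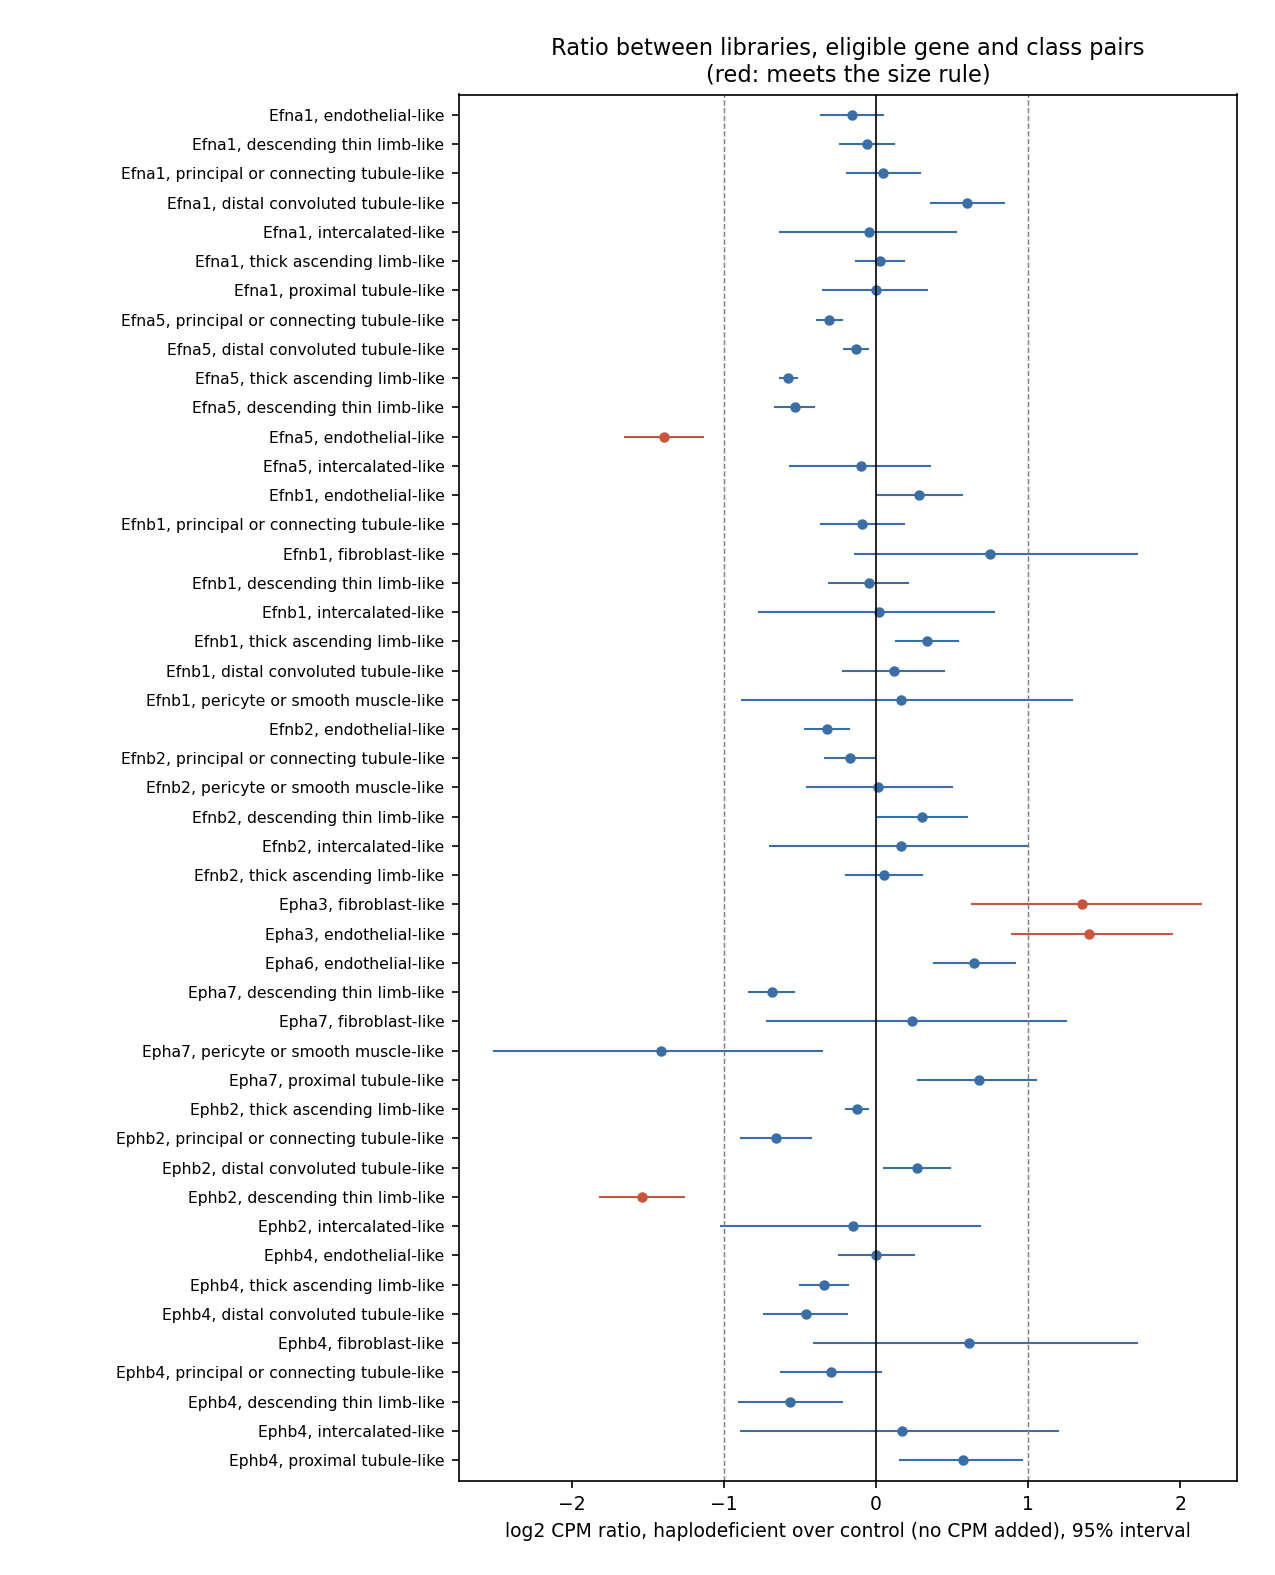
CPM ratio of haplodeficient over control on a log2 scale with no CPM added (points) and its 95% counting interval (lines) for the 47 eligible pairs of gene and class; dashed lines mark 1 unit in each direction and red marks the 4 pairs that met the size rule. The Efna5 endothelial and Ephb2 thin limb points lie left of -1 and both Epha3 points right of 1.

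The start regions of Efna5 and Ephb2 are shown because these 2 genes were lower side by side in several tubule clusters. In distal convoluted tubule-like cells and in the other part of the thick limb-like cells, Efna5 was lower and Ephb2 higher by CPM. The 250 bases before the annotated start are given 5′ to 3′ on the gene's strand, from RefSeq on build GRCm38.p6, with capitals marking CpG pairs. The Efna5 window is chr17:62881318-62881567 on the minus strand and the Ephb2 window is chr4:136836013-136836262 on the minus strand.
Efna5: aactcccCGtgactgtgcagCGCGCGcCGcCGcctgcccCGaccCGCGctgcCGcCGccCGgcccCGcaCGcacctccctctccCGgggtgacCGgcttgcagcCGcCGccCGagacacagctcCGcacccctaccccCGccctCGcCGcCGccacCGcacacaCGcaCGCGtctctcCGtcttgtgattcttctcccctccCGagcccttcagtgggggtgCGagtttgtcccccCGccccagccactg
Ephb2: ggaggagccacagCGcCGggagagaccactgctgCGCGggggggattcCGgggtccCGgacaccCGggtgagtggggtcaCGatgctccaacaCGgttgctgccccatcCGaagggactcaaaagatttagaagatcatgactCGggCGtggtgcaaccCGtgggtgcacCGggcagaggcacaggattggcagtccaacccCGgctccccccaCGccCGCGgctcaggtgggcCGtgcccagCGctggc
The Efna5 window held 32 CpG pairs at 74.8% G and C, and the Ephb2 window 20 at 68.4%. The median over 32851 windows of the same length was 6 CpG pairs and 52.4%. The letters ACGTG, a form of the core of the site bound by hypoxia-inducible factors, were searched on both strands. They were found in none of the windows of the 9 genes, while 16.6% of all windows held them. The form GCGTG was not searched for, and its letters or their reverse complement occur in both printed windows. In the GENCODE M21 annotation of GRCm38, Efna5 (ENSMUSG00000048915) spans chr17:62604184-62881317 and Ephb2 (ENSMUSG00000028664) spans chr4:136647539-136835988, both on the minus strand and protein-coding, with no overlapping gene. The other 7 genes are also protein-coding: Efna1 lies at chr3:89271733-89281142, Efnb1 at chrX:99136130-99148991, Efnb2 at chr8:8617434-8661242, Epha3 at chr16:63543534-63864175, Epha6 at chr16:59653483-60605531, Epha7 at chr4:28813131-28967499 and Ephb4 at chr5:137350109-137378669.

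Efna5 codes for ephrin-A5, a lipid-anchored ligand of EphA receptors that also binds EphB2. In endothelial-like cells it was at 115 CPM (95% interval 102 to 130, 276 UMIs) in control and 43.8 CPM (38.4 to 49.9, 233 UMIs) in haplodeficient cells. The ratio was 0.380 (0.318 to 0.454) and the log2 ratio -1.30, in a class where 0.787% of 9148 eligible genes were lower by the rule. Free RNA, estimated from barcodes with 1 to 100 UMIs, could account for 3.27% of these UMIs in control and 11.6% in haplodeficient cells. The share of endothelial-like cells with an Efna5 UMI was 18.5% in control and 11.1% in haplodeficient cells. After each cell was thinned to 1000 UMIs the shares were 7.76% (95% exact binomial interval 5.13 to 11.2, 335 cells) and 4.61% (3.23 to 6.35, 760 cells), and the intervals overlap. Macrophage-like cells, which should lack the gene, had thinned shares of 0.273% and 0, the latter with an upper bound of 0.325%. Median depths were 3997 and 3906 UMIs in endothelial-like and 4984 and 6029 UMIs in macrophage-like cells. Summed proximal tubule markers in the endothelial-like cells were at 494 CPM in control and 33.3 CPM in haplodeficient cells, with none of the 14 higher in the latter. The 7 thick limb markers summed to 164 and 118 CPM, and the part of either list in the Efna5 difference was not tested. With called doublets kept, the levels were 154 and 89.2 CPM and the log2 ratio of -0.76 did not meet the size rule.

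The endothelial Efna5 came mostly from arterial-like cells. In the arterial-like subcluster, led by Cytl1, Gkn3 and Stmn2, Efna5 was at 453 CPM (395 to 518, 215 UMIs in 55 cells) in control and 320 CPM (274 to 372, 173 UMIs in 75 cells) in haplodeficient cells. The intervals do not overlap, and the ratio was 0.706 (0.575 to 0.867), which did not reach the size rule. This subcluster held 77.9% of the endothelial Efna5 UMIs in control and 74.2% in haplodeficient cells, while its share of endothelial-like cells was 15.2% and 9.45%. The 7 endothelial subclusters were next given the same weights in both libraries, by share of cells. Efna5 was then at 80.8 CPM in control and 52.3 CPM in haplodeficient cells, a log2 ratio of -0.58. The class level pools UMIs instead, so its log2 ratio of -1.30 differs in weighting unit as well as in subcluster shares. The part of the arterial share in the endothelial difference was not tested. In descending vasa recta-like cells, named by the urea transporter gene Slc14a1 and by Aqp1, Efna5 was at 59.9 CPM (42.4 to 82.2) and 26.1 CPM (17.0 to 38.2), with a ratio of 0.435 (0.254 to 0.735). This was the 1 of 21 eligible pairs of the 9 genes and the 5 named subtypes that met the size rule, against 2.65% of 26689 pairs over all genes. With subtypes set from each cell alone it was at 50.9 and 32.3 CPM, and the log2 ratio of -0.58, against -1.06 as reported, did not meet the rule. Glomerular-like endothelial cells had 0 Efna5 UMIs in either library, from 27 and 76 cells, with upper Poisson bounds of 17.99 and 4.81 CPM.

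**Figure D3:**
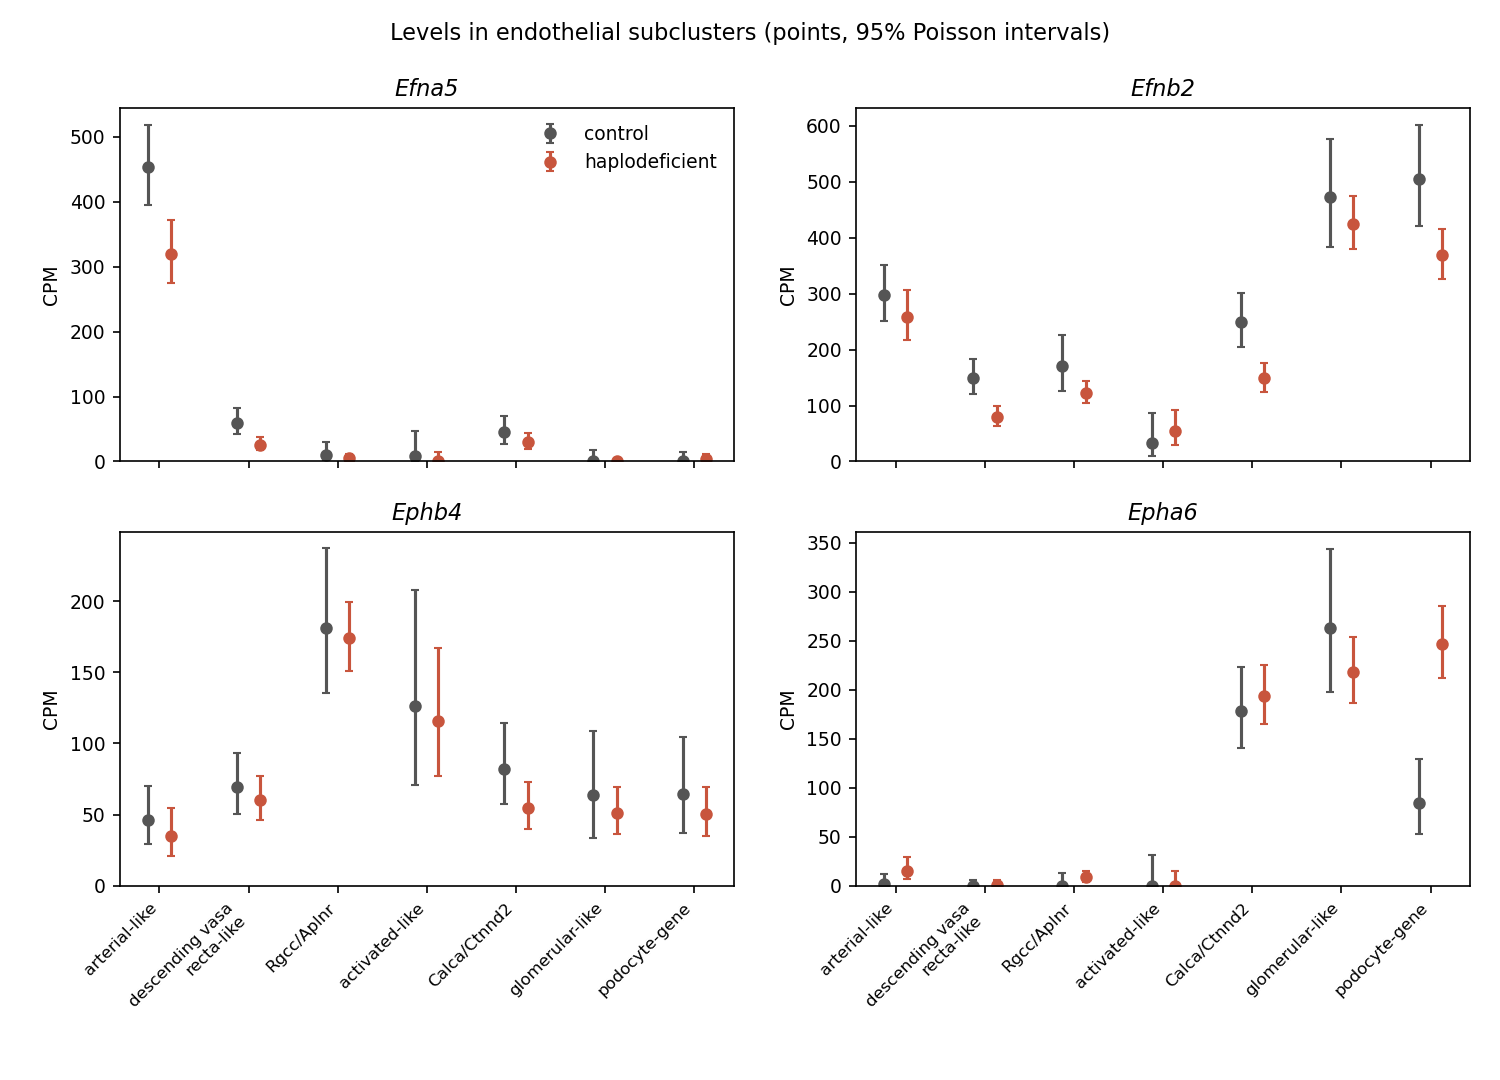
Efna5, Efnb2, Ephb4 and Epha6 in the 7 endothelial subclusters as CPM (points, control grey and haplodeficient red) with 95% Poisson intervals (bars); subclusters with no suffix were left unnamed or are given by leading genes. Efna5 peaks in the arterial-like, Efnb2 and Epha6 in the glomerular-like and podocyte-gene subclusters, and Ephb4 in the Rgcc and Aplnr subcluster, in both libraries except that Epha6 in the podocyte-gene subcluster is 84.3 CPM in control and 246 CPM in haplodeficient cells.

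In tubules Efna5 was high from the thin limb onward. Its levels were 412 and 333 CPM in principal or connecting tubule-like cells, 375 and 342 CPM in distal convoluted tubule-like cells, 315 and 211 CPM in thick ascending limb-like cells and 163 and 112 CPM in descending thin limb-like cells. The order of the first 2 of these classes differed between the libraries, and both stood above the thick limb in both libraries. In all 4 classes the level was lower in the haplodeficient library, by ratios from 0.671 to 0.912, and none met the size rule. Markers that named these classes also differed between the libraries, as given with Ephb2 below. Whether the libraries held the same kinds of cell was not tested. Thick limb-like cells fell into 2 clusters. In the cluster led by Mmp7, Psca and Olfm4, Efna5 was at 363 CPM (349 to 378) in control and 198 CPM (188 to 209) in haplodeficient cells, a ratio of 0.547 (0.512 to 0.584). In the cluster led by Egf, Slc12a1 and Umod, genes of the mature thick limb, the 2 levels were 280 and 218 CPM, with a ratio of 0.780 (0.740 to 0.823). The intervals of these 2 ratios do not overlap, but they cover counting error only. Efna5 was chosen for such differences, so no ranking of the 2 clusters is read from them.

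**Figure D4:**
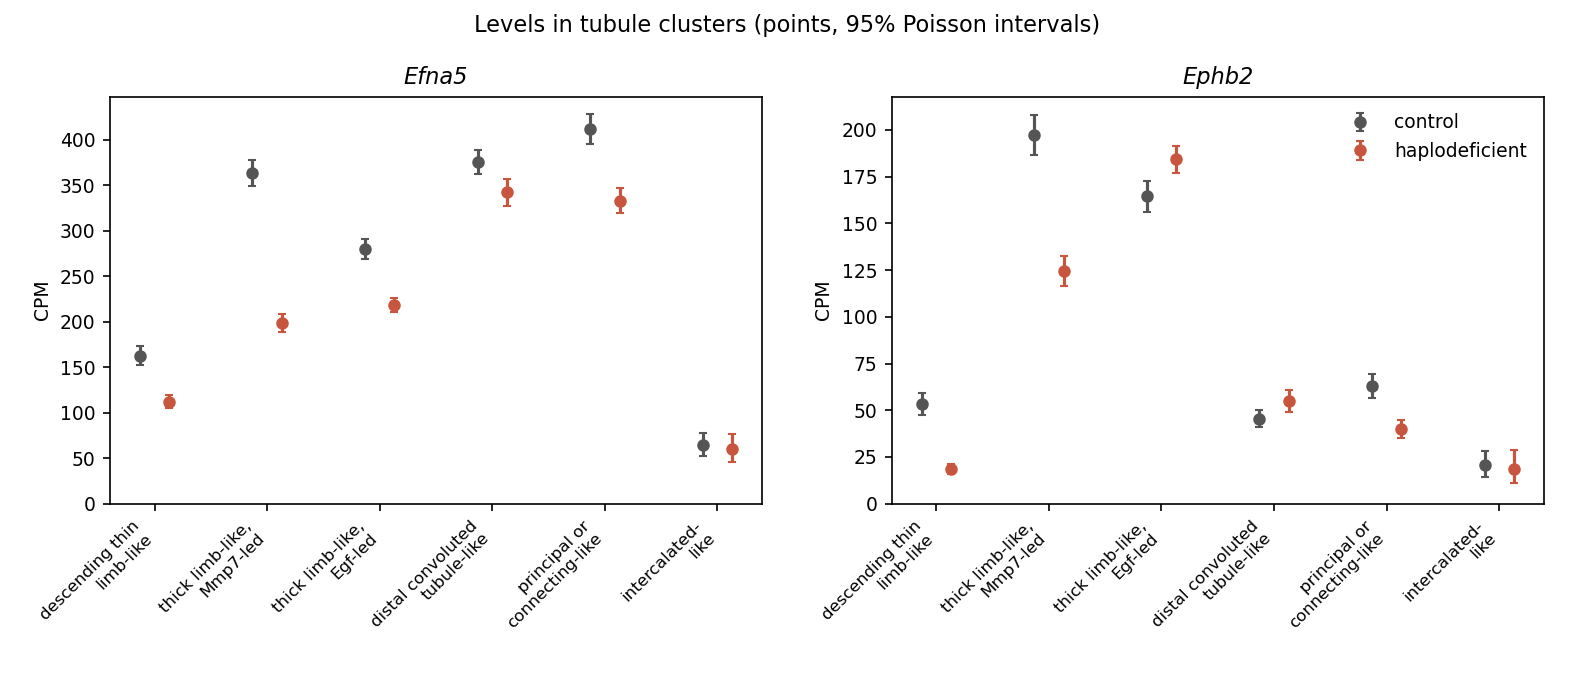
Efna5 (left) and Ephb2 (right) as CPM in 6 tubule clusters for the control (grey) and haplodeficient (red) library, with 95% Poisson intervals. Efna5 is lower in the haplodeficient library in the first 5 clusters, and Ephb2 is lower in the thin limb, Mmp7-led and principal or connecting clusters and higher in the Egf-led cluster.

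Efna1 codes for ephrin-A1, a ligand that endothelium induces with tumour necrosis factor. It was highest in endothelial-like cells, at 126 CPM (112 to 141) in control and 113 CPM (104 to 122) in haplodeficient cells, with a ratio of 0.895 (0.778 to 1.03). Descending thin limb-like cells followed at 72.8 and 69.7 CPM and principal or connecting tubule-like cells at 44.9 and 46.4 CPM. In these 3 classes the intervals of the libraries overlap. In distal convoluted tubule-like cells Efna1 was at 33.9 CPM (30.0 to 38.1) in control and 51.3 CPM (45.7 to 57.4) in haplodeficient cells, which do not overlap, and the ratio of 1.51 (1.28 to 1.79) was below the size rule. Whether the libraries held the same kinds of distal convoluted tubule-like cell was not tested.

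Efnb2 codes for ephrin-B2, the arterial ligand. In endothelial-like cells it was at 258 CPM (238 to 279, 618 UMIs) in control and 206 CPM (194 to 219, 1096 UMIs) in haplodeficient cells. The intervals do not overlap and the ratio was 0.799 (0.723 to 0.883). Principal or connecting tubule-like cells had 104 and 92.7 CPM and pericyte or smooth muscle-like cells 90.0 and 91.0 CPM. Among named endothelial subtypes Efnb2 was highest in glomerular-like cells, at 473 CPM (384 to 577) and 425 CPM (380 to 474), which overlap. Arterial-like cells came next with 297 and 259 CPM. In descending vasa recta-like cells it was at 150 CPM (121 to 183) in control and 79.2 CPM (62.7 to 98.7) in haplodeficient cells, a ratio of 0.529 (0.387 to 0.720) and a log2 ratio of -0.88. Activated-like cells, which carry the adhesion genes Selp and Sele, had 33.6 and 53.7 CPM from 4 and 13 UMIs. Efnb2 overlaps 3 annotated genes on the same strand (E230020D15Rik, Gm45074 and Gm45073), so reads shared with them cannot be assigned with certainty.

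Ephb4 codes for EphB4, the venous receptor of ephrin-B2. Its level in endothelial-like cells was the same in both libraries within counting error, 82.3 CPM (71.2 to 94.6) in control and 82.4 CPM (74.9 to 90.5) in haplodeficient cells, with a ratio of 1.00 (0.845 to 1.19). The subcluster led by Col13a1, Rgcc and Aplnr, which met the marker rule for venous or ascending vasa recta endothelium although Rgcc is better known from capillaries, had the highest level, at 181 CPM (135 to 238) and 174 CPM (151 to 199). Arterial-like cells had 46.4 and 35.2 CPM. Efnb2 was ordered the other way in the control, with 171 CPM in that subcluster and 297 CPM in arterial-like cells, and in the haplodeficient library, with 123 and 259 CPM. Outside endothelium Ephb4 was at 40.0 and 31.5 CPM in thick limb-like cells and 39.9 and 28.9 CPM in distal convoluted tubule-like cells. These ratios, 0.789 (0.707 to 0.881) and 0.725 (0.600 to 0.875), were below the size rule. The gene Zan overlaps Ephb4 on the opposite strand.

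Efnb1 codes for ephrin-B1, which is also found at the slit junction of podocytes. Its level was higher in parietal epithelium-like cells, which were too few in the control library for a comparison, than in any of the 13 classes, at 146 CPM (124 to 171, 153 UMIs) and 142 CPM (130 to 155, 533 UMIs). It was at 62.2 CPM (52.7 to 73.1) and 75.7 CPM (68.4 to 83.4) in endothelial-like cells, 36.4 and 34.1 CPM in principal or connecting tubule-like cells and 26.1 and 43.8 CPM in fibroblast-like cells. The intervals overlap in each of these classes, and the fibroblast values rest on 15 and 40 UMIs. In the Egf-led thick limb cluster it was at 15.7 CPM in control and 27.1 CPM in haplodeficient cells, a ratio of 1.73 (1.43 to 2.11), and in the Mmp7-led cluster at 26.1 and 21.9 CPM, a ratio of 0.837 (0.672 to 1.04). The 2 ratio intervals do not overlap, by counting error only. The Mmp7-led interval includes equal levels, so no lower level is read there.

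Ephb2 codes for EphB2, a receptor of B-type ephrins that also binds ephrin-A5. It was highest in thick ascending limb-like cells, at 178 CPM (172 to 185, 2877 UMIs) in control and 163 CPM (158 to 169, 3401 UMIs) in haplodeficient cells. The ratio was 0.916 (0.871 to 0.963), and 1.07% of the eligible genes of this class met the size rule in either direction. By CPM, the near equality joined opposite differences in the 2 clusters. CPM totals include mitochondrial UMIs, which were 12.2% of this class's UMIs in control and 4.65% in haplodeficient cells. In distal convoluted tubule-like cells they were 14.3% and 6.11%. Without them the log2 ratio of Ephb2 in thick limb-like cells was -0.24, against -0.12 as reported. Whether the directions in the 2 clusters and in distal convoluted tubule-like cells hold without them was not tested. In the Mmp7-led cluster Ephb2 was at 197 and 124 CPM, with a ratio of 0.631 (0.579 to 0.687), and in the Egf-led cluster at 164 and 184 CPM, with a ratio of 1.12 (1.05 to 1.19). The Egf-led cluster held 508 of 1049 control and 438 of 1171 haplodeficient thick limb-like cells. Principal or connecting tubule-like cells had 62.9 and 39.8 CPM, a ratio of 0.634 (0.540 to 0.743), and distal convoluted tubule-like cells 45.5 and 54.8 CPM, a ratio of 1.20 (1.04 to 1.40). Markers that named these classes also differed. In principal or connecting tubule-like cells Aqp2 was at 1433 and 212 CPM and Fxyd4 at 1623 and 1764 CPM. Slc12a3 was at 2609 and 919 CPM in distal convoluted tubule-like cells. In thick limb-like cells Egf was at 1136 and 321 CPM and Cldn10 at 671 and 1205 CPM. Whether the libraries held the same kinds of cell in these classes was not tested. In endothelial-like cells Ephb2 had 5 and 2 UMIs.

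In descending thin limb-like cells Ephb2 was at 53.1 CPM (47.5 to 59.2, 324 UMIs in 368 cells) in control and 18.3 CPM (15.6 to 21.4, 164 UMIs in 668 cells) in haplodeficient cells. The ratio was 0.345 (0.284 to 0.418) and the log2 ratio -1.32, where 1.27% of 9337 eligible genes were lower by the rule. Cells with many UMIs of the gene stood out in the control. There, 18 cells had 5 or more Ephb2 UMIs and the highest cell had 34, against 4 cells and a highest of 6 in the haplodeficient library. The share of cells with any Ephb2 UMI was 29.9% and 15.4%, and after thinning to 1000 UMIs it was 4.13% (2.33 to 6.72) and 3.48% (2.22 to 5.18), which overlap. Macrophage-like cells had thinned shares of 0.273% and 0.0882%. Free RNA could account for 2.11% of the UMIs in control and 9.44% in haplodeficient cells. The 7 thick limb markers summed to 549 CPM in these control cells and 308 CPM in the haplodeficient cells, and the 14 proximal tubule markers to 996 and 63.9 CPM. No UMI of Slc12a1, the thick limb's salt transporter gene, was seen in 334 control and 625 haplodeficient cells. In these Ephb2 was at 52.8 and 18.7 CPM with a ratio of 0.354 (0.288 to 0.434). The part of RNA from other tubule cells in the Ephb2 difference was not tested. The markers that named the class also differed, with Aqp1 at 268 CPM in control and 79.2 CPM in haplodeficient cells and Slc14a2 at 515 and 333 CPM. Whether the 2 libraries held the same kinds of thin limb cell was not tested.

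Epha7 codes for EphA7, a receptor of A-type ephrins. It was highest in descending thin limb-like cells, at 131 CPM (122 to 140, 796 UMIs) in control and 81.1 CPM (75.3 to 87.3, 726 UMIs) in haplodeficient cells. The intervals do not overlap and the ratio was 0.622 (0.561 to 0.688), below the size rule. Of the 7 genes eligible in this class, Efnb2 alone was higher in the haplodeficient library, at 24.9 and 30.7 CPM. Without Efna5 and Ephb2 the median log2 ratio of the other 5 was -0.06, against -0.03 for all eligible genes there. Fibroblast-like cells had Epha7 at 26.1 and 30.7 CPM, and pericyte or smooth muscle-like cells at 30.5 CPM (18.6 to 47.1) and 11.5 CPM (6.27 to 19.2). The pericyte ratio was 0.376, but it rested on 20 and 14 UMIs and its intervals overlap. Gm11915 overlaps Epha7 on the opposite strand.

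Epha3 codes for EphA3, a receptor known from mesenchymal cells. In fibroblast-like cells, where the collagen genes Col1a1 and Col1a2 were at 2764 and 3777 CPM in the control library, it was at 34.8 CPM (21.2 to 53.7, 20 UMIs in 11 of 110 cells) in control and 88.8 CPM (70.5 to 110, 81 UMIs in 33 of 120 cells) in haplodeficient cells. The ratio was 2.55 (1.55 to 4.40) and the log2 ratio 1.24, where 1.11% of 6674 eligible genes were higher by the rule. Markers of other cell types differed between the libraries in this class as well. The 10 endothelial markers summed to 320 and 486 CPM, with 8 higher in the haplodeficient library, the 14 proximal tubule markers to 495 and 23.0 CPM and the 8 macrophage markers to 250 and 104 CPM, and their part in the Epha3 difference was not tested. The 10 cells with the most UMIs held 66.7% of them in the haplodeficient library, and 1 cell had 18. Thinned to 1000 UMIs, the shares of cells with a UMI were 2.73% (0.566 to 7.76) and 6.72% (2.95 to 12.8), which overlap. With called doublets kept, the log2 ratio was 0.94 and did not meet the size rule. Pericyte or smooth muscle-like cells had 10.7 and 17.2 CPM. Gm22769 overlaps Epha3 on the same strand, so reads shared with it cannot be assigned with certainty.

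In endothelial-like cells Epha3 was at 15.5 CPM (10.9 to 21.3, 37 UMIs) in control and 40.8 CPM (35.6 to 46.6, 217 UMIs) in haplodeficient cells, a ratio of 2.64 (1.86 to 3.85), in a class where 0.284% of eligible genes were higher by the rule. Nearly all of it lay in 1 small subcluster of 15 control and 30 haplodeficient cells led by Magi2, a gene of podocytes, the epithelial cells that wrap glomerular capillaries. That subcluster held 37 of the 37 control UMIs and 205 of the 217 haplodeficient UMIs. Within it Epha3 was at 149 CPM (105 to 205) in control and 285 CPM (248 to 327) in haplodeficient cells, and the ratio of 1.92 (1.35 to 2.81) did not reach the size rule. With the same subcluster weights in both libraries, by share of cells, the endothelial values were 5.88 and 12.6 CPM. Their log2 ratio was 0.70 with 5 CPM added to each. The class level pools UMIs instead, so its log2 ratio of 1.16 differs in weighting unit too. All 7 podocyte markers were present in the Magi2-led subcluster in both libraries, and the median UMIs of its cells were 4.21 times those of the class in their own library. Without it endothelial Epha3 was at 0 in the control, with an upper Poisson bound of 1.72 CPM, and 2.61 CPM in the haplodeficient library, and the gene no longer met the eligibility rule. With called doublets kept and the clusters rebuilt, endothelial Epha3 was at 1.13 and 0 CPM, a log2 ratio of -0.29 against 1.16 as reported. With classes set from each cell alone the log2 ratio was 0.83 and did not meet the size rule.

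Epha6 codes for EphA6, another receptor of A-type ephrins. Among the 13 classes it was eligible in endothelial-like cells alone, at 63.5 CPM (53.8 to 74.4, 152 UMIs) in control and 98.99 CPM (90.7 to 108, 526 UMIs) in haplodeficient cells. The intervals do not overlap and the ratio was 1.56 (1.30 to 1.88), below the size rule. Pericyte or smooth muscle-like cells followed with 6.10 and 0 CPM and intercalated-like cells with 1.17 and 0.922 CPM. Within endothelium it was at 263 CPM (198 to 344) and 218 CPM (186 to 254) in glomerular-like cells, and at 179 and 194 CPM in an unnamed subcluster led by Ctnnd2 and Calca, with overlapping intervals in both. In descending vasa recta-like cells it was at 0 and 1.00 CPM. In the subcluster with podocyte genes it was at 84.3 CPM (52.2 to 129) in control and 246 CPM (212 to 285) in haplodeficient cells, a ratio of 2.92 (1.85 to 4.84) that met the size rule, as did 2.62% of the eligible genes of that subcluster. With the same subcluster weights in both libraries the endothelial values were 59.9 and 69.5 CPM, a log2 ratio of 0.20. Gm24755 and Gm4660 overlap Epha6 on the same strand and 4930547E14Rik and Gm9017 on the opposite strand.

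The 13 other ephrin and Eph genes gave 24 eligible pairs, of which 1 met the size rule, against 2.02% of pairs over all genes. That was Epha4, a receptor that binds both kinds of ephrin, in fibroblast-like cells, at 45.2 CPM from 26 UMIs in control and 15.3 CPM from 14 UMIs in haplodeficient cells, with a ratio of 0.340 (0.164 to 0.675), where 1.99% of eligible genes were lower by the rule. Epha4 was highest in endothelial-like cells, at 92.3 and 58.7 CPM with a ratio of 0.636 (0.534 to 0.759). Efna2 (32.2 and 31.2 CPM) and Ephb1 (32.2 and 36.7 CPM) were highest in endothelial-like cells. Efna4 was highest in principal or connecting tubule-like cells at 42.2 and 48.0 CPM, Ephb6 in distal convoluted tubule-like cells at 23.4 and 31.9 CPM, Ephb3 in intercalated-like cells at 15.8 and 12.0 CPM and Efna3, by the mean of the libraries, in thick limb-like cells at 2.54 and 4.90 CPM. The control library alone had its top Efna3 level, 4.19 CPM, in principal or connecting tubule-like cells. Epha2 (35.7 and 30.8 CPM) and Epha1 (11.2 and 9.05 CPM) were highest in descending thin limb-like cells. Efnb3, Epha5, Epha8 and Epha10 stayed below 4 CPM in each library even in their highest class.

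Genes that carry the Eph signal inside the cell were a list of 21 adaptors, kinases, exchange factors and the ephrin-cutting protease gene Adam10. They gave 191 eligible pairs of which none met the size rule, against 2.02% of 103014 pairs over all genes. In endothelial-like cells 17 of the 21 were eligible, 5 were higher in the haplodeficient library, and the median log2 ratio was -0.11 against -0.00 for all eligible genes. Kalrn, an exchange factor downstream of EphB receptors, had the largest log2 difference there with 5 CPM added (-0.71), with 327 CPM in control and 198 CPM in haplodeficient cells. Grip1 went the other way (0.68). With no CPM added, Kalrn had a ratio of 0.606, and Tiam1 (0.529) and Grip1 (1.89) lay further from equality.

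Across the 26 profiles of 13 classes in 2 libraries, the genes whose log2(CPM + 5) followed each member most closely among 8279 genes were found by Pearson's r, as a description, since the profiles share libraries and classes. Efna5 was nearest to Stox2 (r = 0.969), Mal and Rhpn2, and Ephb2 to Tfap2b (r = 0.952), Arfgef3 and Map3k2. Epha6 was nearest to Meox1 (r = 0.981), Fam167b and Arhgef15, Efnb2 to Cav1 (r = 0.905), Sema3f and Caskin2, and Efna1 to Fam171a1 (r = 0.946), Cmtm8 and Edn1. Efnb1 was nearest to Tjp1 (r = 0.969), S100a16 and Npdc1, and Ephb4 to Ptprg (r = 0.954), Sptan1 and Tspan9. Epha3 was nearest to Npr3 (r = 0.972), B3galt1 and Snai2, and Epha7 to Plekhh2 (r = 0.860), Ntm and Plod2, the lowest best match of the 9.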

How the data were processed

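Droplet-based 3′-end single-cell RNA was measured in 2 mouse kidney libraries, 1 per group. The deposited values were raw UMI counts, which the authors produced using Cell Ranger 4 per the file headers, and mm10 was named in the submitters' processing notes. They were unfiltered (134190236 control and 114668145 haplodeficient UMIs). The 9 genes and all lists were chosen with earlier results of these data known.

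Barcodes were filtered as stated, called doublets were removed (715 control and 804 haplodeficient, Scrublet at 0.8% per 1000 cells), and cells were clustered with scanpy 1.11.5 and leidenalg 0.10.2 (2000 variable genes without ephrin and Eph genes, 30 components, resolution 1). No annotation by the authors was used, so classes were rebuilt: a cluster took the name of the marker list, out of 21, with at least 3 markers detected in 10% of its cells and raised 2 times, by a rule set after the data were seen. Clusters that failed stayed unnamed. UMIs were summed per class and library to CPM with exact Poisson intervals (scipy 1.17.1), and ratios have exact conditional binomial intervals. The intervals cover counting error only. With 1 library per group no test was made.

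Named were the 9 genes in their 3 highest classes and wherever they met the size rule, other family genes in their highest class or where they met it, signalling genes that met it in endothelium (Kalrn, Grip1 and Tiam1 were added after their values were seen), and the 3 nearest genes by correlation. The size rule and the Poisson intervals were run on simulated Poisson counts. These lack the gathering of UMIs in few cells seen here, so the run checks the computation only. Alternative filters, clusterings and scalings are given in the closing section. Values of 1 marker gene are not reported here. Of 32285 gene identifiers, 99.6% matched GENCODE M21.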

Additional observations from a re-analysis of the deposited data

Results flagged for a closer look

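In a cluster left unnamed, led by the division gene Cenpf and made of shallow cells (75 control and 222 haplodeficient), Efna5 was at 330 CPM from 255 UMIs in control and 150 CPM from 141 UMIs in haplodeficient cells. Its log2 ratio was -1.11, which met the size rule in cells that no comparison of the report used. In this cluster 7.82% of 7600 eligible genes met the rule.

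Parietal epithelium-like cells, too few in the control library for a comparison (94 against 289), had 0 Epha6 UMIs in control and 130 UMIs in haplodeficient cells, or 34.7 CPM. The control count of 0 has an upper Poisson bound of 3.52 CPM, and the 95% interval of the ratio starts at 9.71. All 130 UMIs came from 11 cells. In those 11 cells 6 podocyte markers summed to 3951 CPM, against 782 CPM in the other 278 haplodeficient cells and 601 CPM in the control cells. The part of podocyte RNA in this value was not tested.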

How the results depend on the processing

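No paired analysis was possible because each group had 1 library and the labels give no replicate numbers shared between groups. The number of gene and class pairs meeting the size rule was 4 of 47 eligible as reported (2.02% over all genes). It was 8 of 53 with a minimum of 1000 UMIs (1.96%) and 7 of 55 at clustering resolution 2 (2.02%). It was 8 of 50 with each library clustered on its own (3.59%) and 2 of 19 with eligibility at 50 CPM (2.1%). With doublets kept it was 4 of 64 (2.35%), and 1 of the 4 pairs was shared. Efna5 and Ephb2 are in these counts, so nothing is read from them. The log2 ratio of Efna5 in endothelial-like cells, -1.30 as reported, was -1.13 with each library's own UMI minimum, -1.05 with classes set from each cell alone, -1.06 with each library clustered on its own, -0.76 with doublets kept (no longer meeting the size rule) and -0.58 with the same subcluster weights in both libraries. Ephb2 in thick limb-like cells, -0.12 as reported, was -0.0057 with each library clustered on its own and, in settings chosen after seeing the data, -0.24 without mitochondrial UMIs and -0.28 with the same cluster weights in both libraries. The subtype count of 1 was 4 with subtypes set from each cell alone, and the reported pair, Efna5 in descending vasa recta-like cells, was not among them (-0.58 against -1.06). The share over all genes was not computed for that setting. Epha3 in endothelial-like cells, 1.16 as reported, reversed to -0.29 with doublets kept and was 0.70 with the same subcluster weights in both libraries, chosen after seeing the data. The cause of these shifts was not tested. Ephb2 in descending thin limb-like cells stayed between -1.29 and -1.82 under all settings run. Depth limits Epha3 in fibroblast-like cells, with 20 control UMIs, and every value in the arterial-like cells, 55 and 75 in number.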
